A study of Mus musculus with 24 samples.

Results

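Glutathione transferases, UDP-glucuronosyltransferases and sulfotransferases attach glutathione, glucuronic acid or sulfate to small molecules. They were taken here as every gene whose symbol starts with Gsta, Gstm, Gstp, Gstt, Gsto, Gstz or Gstk and a number, with Ugt1a, Ugt2a, Ugt2b or Ugt3a, or with Sult and a number. Of 21368 genes named on the arrays, 55 matched: 21 glutathione transferases, 14 UDP-glucuronosyltransferases and 20 sulfotransferases. The naming rule itself uses no measured value, and for each gene the probe with the highest mean over the 24 arrays was used, which decided between probes for 17 of the 55. A further 11 reference genes that fit the same naming, Gsta1 and Ugt1a1 among them, had no named probe and were not analysed here.

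RNA from liver, brain, heart and muscle of 6 female mice was hybridised to 24 single-color arrays. Mice A, B and C were Rap1 knock-in (KI; "RAP1 MUT" in the labels) and carried the I312R substitution of the shelterin protein RAP1, made with CRISPR/Cas9 and back-crossed to C57BL6 mice (C57BL/6N in the study's methods). Mice D, E and F were wild-type (WT) mice. Mice A, B, D and E were 15 months old and mice C and F were 14 months old, so that each of the 8 groups of tissue and genotype held 3 arrays, 1 per mouse. Liver and brain RNA was extracted with a different kit from heart and muscle RNA, and a tissue difference across the kits cannot be told apart from that step.

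These enzymes make their substrates more soluble in water, and transporters then carry the conjugates into bile or urine. Glutathione transferases also reduce peroxides and bind hydrophobic compounds, UDP-glucuronosyltransferases sit in the membrane of the endoplasmic reticulum and clear bilirubin, steroids and drugs, and cytosolic sulfotransferases act on phenols, catecholamines, estrogens, hydroxysteroids and bile acids. Hepatocytes carry much of this work, and several members are known for higher expression in the liver of female mice than of male mice, among them Sult2a1 and Sult3a1.

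Levels are given as log2 of the array's processed signal relative to its own 75th percentile, so 0 marks the 75th percentile of that array, and a level compares the same probe between samples but not different genes. A spot counted as detected where the scanner software marked it well above background. The 75th percentile signal lay between 312.5 and 2519.4 on the 24 arrays, 49.4 to 68.4% of probes were detected, and no spot was saturated. The summed level of 12 hepatocyte markers was 11.80 to 12.71 in the livers and at most 8.93 elsewhere, that of 8 cardiomyocyte markers was 10.57 to 11.24 in the hearts and at most 4.18 elsewhere, that of 8 neuron markers was 8.19 to 8.43 in the brains and at most 6.82 elsewhere, and that of 10 skeletal muscle markers was 12.55 to 13.00 in the muscles and at most 5.86 elsewhere. The brain of KI mouse C stood apart, with 12 of 12 hepatocyte markers above the other 5 brains (Alb at 6.53, against at most -0.82) and 7 of 11 olfactory mucosa markers above them. The liver of KI mouse C had 9 of 10 skeletal muscle markers above the other 5 livers (mean level 0.88, against at most -4.61). Terf2ip, which encodes RAP1, differed between KI and WT by -0.33 (liver, SE 0.21), -0.13 (brain, SE 0.18), -0.15 (heart, SE 0.15) and -0.07 (muscle, SE 0.16), none past the threshold, and since the allele changes an amino acid, its level does not check the genotype labels.

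The upstream sequence of a few members is shown first, because the largest differences below were between tissues, and because the genotype differences in liver were of either sign among the Sult2a genes, whose windows all lie on mouse chromosome 7. RefSeq windows on the GRCm38.p6 build, from 250 bases before to 50 bases after the annotated start, were found for 47 of the 55 members (58 windows). Each is written from 5′ to 3′ on the strand of the gene, with capitals as follows. In Sult2a4 and Sult2a3 they mark the longest run of letters that these windows share, and in Sult2a6 the longest run it shares with Sult2a3. In Sult2a8 and Gsta3 they mark TGACNNNGC on either strand (the core of the antioxidant response element), GCGTG on either strand (the core of the xenobiotic response element) or TATAAA from 40 to 20 bases before the start. The first 3 belong to hydroxysteroid sulfotransferases whose KI mean was above the WT mean in liver. The next belongs to Sult2a8, whose KI mean was below it, and the last to Gsta3, also called highest in liver. None of these genotype differences passed the threshold. Sult2a1, Sult2a2 and Sult2a7 had no window, and another window of Sult2a8, without any of the marked letters, is not shown.
Sult2a4, chr7:13989539-13989838, minus strand: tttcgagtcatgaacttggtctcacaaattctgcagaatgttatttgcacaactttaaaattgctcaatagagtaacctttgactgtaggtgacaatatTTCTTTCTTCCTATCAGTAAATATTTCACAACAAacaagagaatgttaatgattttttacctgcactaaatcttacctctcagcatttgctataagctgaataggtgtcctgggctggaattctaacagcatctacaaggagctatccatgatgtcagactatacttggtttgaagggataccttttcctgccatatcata
Sult2a3, chr7:14122999-14123298, minus strand: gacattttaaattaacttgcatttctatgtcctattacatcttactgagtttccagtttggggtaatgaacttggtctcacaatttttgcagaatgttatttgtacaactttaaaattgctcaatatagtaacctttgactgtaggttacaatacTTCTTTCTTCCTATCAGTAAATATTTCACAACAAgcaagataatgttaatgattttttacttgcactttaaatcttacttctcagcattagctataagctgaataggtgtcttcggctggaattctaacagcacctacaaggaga
Sult2a6, chr7:14254821-14255120, minus strand: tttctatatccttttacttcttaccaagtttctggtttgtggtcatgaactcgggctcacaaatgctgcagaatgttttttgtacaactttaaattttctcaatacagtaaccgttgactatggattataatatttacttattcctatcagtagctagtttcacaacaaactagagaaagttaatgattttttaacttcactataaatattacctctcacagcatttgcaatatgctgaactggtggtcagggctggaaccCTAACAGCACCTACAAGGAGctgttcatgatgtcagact
Sult2a8, chr7:14438502-14438801, minus strand: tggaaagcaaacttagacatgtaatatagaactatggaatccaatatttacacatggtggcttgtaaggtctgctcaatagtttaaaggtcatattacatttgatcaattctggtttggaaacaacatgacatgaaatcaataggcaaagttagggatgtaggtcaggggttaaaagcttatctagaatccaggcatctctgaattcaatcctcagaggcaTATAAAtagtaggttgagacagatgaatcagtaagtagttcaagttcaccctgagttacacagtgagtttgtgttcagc
Gsta3, chr1:21240335-21240634, plus strand: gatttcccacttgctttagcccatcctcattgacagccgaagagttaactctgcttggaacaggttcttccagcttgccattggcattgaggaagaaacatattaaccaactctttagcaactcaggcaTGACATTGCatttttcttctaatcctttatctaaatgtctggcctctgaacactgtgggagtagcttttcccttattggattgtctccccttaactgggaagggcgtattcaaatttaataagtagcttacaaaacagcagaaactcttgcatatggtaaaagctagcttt

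The windows of Sult2a4 and Sult2a3 shared an unbroken run of 34 bases, those of Sult2a3 and Sult2a6 a run of 20 bases, and no window of Sult2a8 shared a run of more than 10 bases with any of these. The antioxidant response element core was in 3 of the 58 member windows, those of Gsta3, Gstm5 and Gstm7 (5.17%, against 12.39% of all 32851 windows of the same length), and the xenobiotic response element core was in 10 (17.24%, against 32.39%). TATAAA at the stated position was in 2 member windows, of Gstm1 and Sult2a8 (3.45%, against 1.99%). These counts describe letters in a short window and were not tested.

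Across the 4 tissues, most members were liver genes. A member was called highest in a tissue where its level, averaged over genotype, exceeded that in each other tissue by more than 1 on the log2 scale with a limma adjusted p under 0.05, and where the probe was detected on all 6 arrays of the tissue. Of the 55 members, 52 were detected on all 3 arrays of at least 1 group and entered this fit, and Gstt4, Sult1c1 and Sult6b2 did not. By this rule 41 members were highest in liver, against 14.3% of all 17299 genes fitted. They comprised 14 of 21 glutathione transferases, 13 of 14 UDP-glucuronosyltransferases and 14 of 20 sulfotransferases. In brain 2 members were called highest (15.9% of all genes), in heart 2 (4.32%) and in muscle 0 (6.17%). In bulk tissue, fewer cells of a type and less RNA per cell cannot be told apart.

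Detection followed the same order. In liver 49 members were detected on all 6 arrays (62.5% of all genes), in brain 27 (73.0%), in heart 25 (67.4%) and in muscle 22 (60.9%). No array was well above background for 22 members in heart (19.4% of all genes) and 23 in muscle (25.3%), against 3 in liver (21.7%) and 4 in brain (15.4%). The 4 in brain depends on the array of KI mouse C, described above. It was the only brain array with detection for 12 members called highest in liver, and for Sult1e1 and Sult1c1. By the mirror rule, without the detection condition, 7 members were lowest in brain (13% of all genes), 3 in muscle (3.14%), 2 in liver (12%) and 1 in heart (1.47%). These include Ugt1a6a in brain and Sult6b1 in liver, detected on no array there, and Sult2b1 in heart, detected on 1. Where a group had no detected array, a fold below is a lower bound. It was taken against the higher of the probe's own signal and the lowest signal among detected probes on each array.

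**Figure D1:**
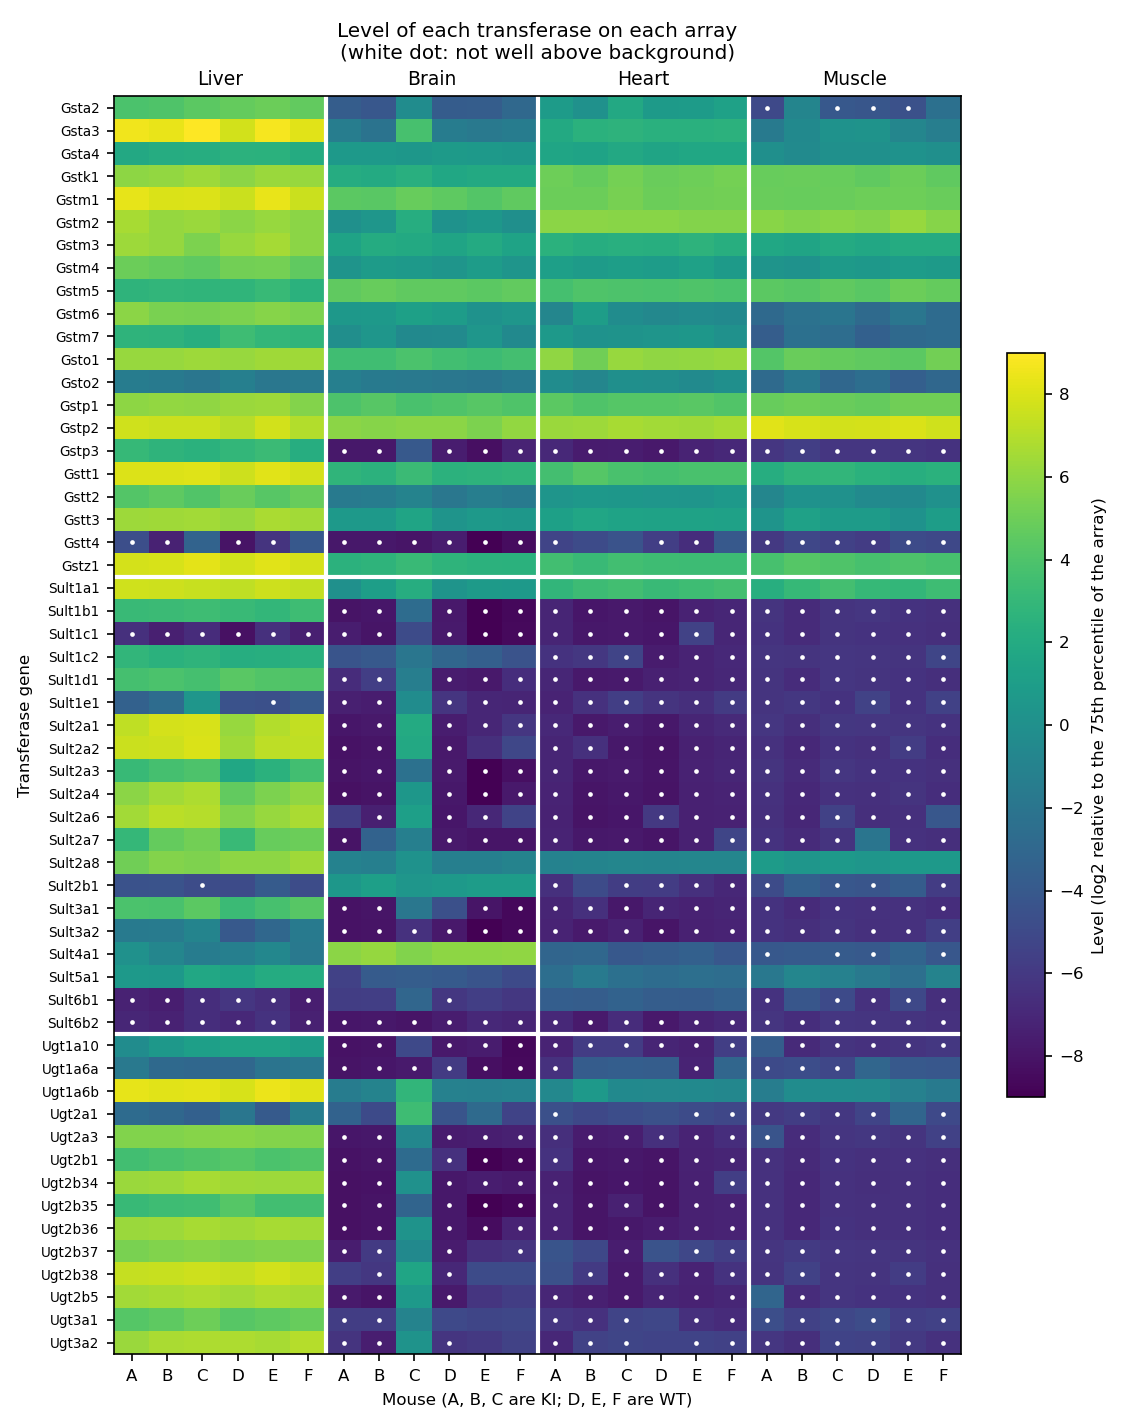
Level of each of the 55 transferases (rows, grouped by enzyme class) on each of the 24 arrays (columns, by tissue and mouse), as log2 against the array's own 75th percentile, with a white dot where the probe was not well above background. The liver block is bright for most rows, Sult4a1 and Sult2b1 stand out in brain, and the brain of mouse C is brighter than the other brains over many rows.

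The glutathione transferases were detected more widely than the other classes. Gsta3, an alpha class enzyme that conjugates the epoxide of aflatoxin in mice, ranged from 7.75 to 8.94 in the 6 livers (mean 8.45), and its mean was 2.41 in heart, -0.61 in muscle and -0.73 in brain. The livers exceeded the hearts by 6.04 (SE 0.67, adjusted p = 1.26e-07, 65.8-fold), and no liver overlapped another tissue. Gstt1, of the theta class, had a mean of 7.99 in liver and was next highest in heart at 3.84, a difference of 4.16 (SE 0.14, adjusted p = 3.27e-15). Gstz1, which also serves tyrosine breakdown as maleylacetoacetate isomerase, averaged 7.97 in liver and 3.92 in muscle, the next tissue (difference 4.05, SE 0.13). Gstm1, of the mu class, was detected on all 24 arrays and was 7.98 in liver against 4.50 to 5.08 in the other tissues, a 7.46-fold difference from heart. Gstm3 exceeded the next tissue by 3.74 (SE 0.17) in liver with the probe used. Its second probe averaged 5.44 in liver and was detected on 3 brain arrays, 1 heart array and 0 muscle arrays. Smaller differences were found for Gstk1, an enzyme of mitochondria and peroxisomes (liver 6.13, heart 5.02, a 2.16-fold difference). Gstp1, of the pi class, was 6.07 in liver and 4.94 in muscle, a 2.18-fold difference. Both calls were lost with quantile normalization and with z-scores, and that of Gstp1 also with the mean of all probes. The second Gstp1 probe averaged 4.35 in liver and 4.05 in muscle.

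Several glutathione transferases did not follow the liver. Gstm5 was lowest in liver, with a mean of 2.79 there, 4.63 in brain, 4.58 in muscle and 3.93 in heart. Its liver minus brain difference was -1.84 (SE 0.11, adjusted p = 8.95e-12), while brain and muscle differed by 0.05 (SE 0.11), which was not past the threshold. With the probe used, Gstp2 averaged 7.89 in muscle and 7.43 in liver, a liver minus muscle difference of -0.46 (SE 0.14, adjusted p = 0.00509). It averaged 6.47 in heart and 5.82 in brain. The second Gstp2 probe, detected on every array, had the opposite order, 5.79 in liver and 5.36 in muscle. The pi class genes are close copies of each other, and signal from a neighbouring copy on the probe of another cannot be separated. Gsta4, which conjugates the lipid peroxidation product 4-hydroxynonenal, averaged 2.23 in liver and 1.63 in heart, a difference of 0.60 (SE 0.11) that was below the required minimum. Gstm2 and Gsto1 did not differ between liver and heart past the threshold (0.41, SE 0.25, adjusted p = 0.151, and 0.39, SE 0.17, adjusted p = 0.0526). Gsto2, an omega class enzyme that reduces dehydroascorbate, was highest in heart.

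Gsto2 levels in the hearts were -0.24, -0.74 and -0.07 in KI mice A, B and C and -0.14, -0.37 and -0.03 in WT mice D, E and F. All 6 lay above every array of the other tissues, the highest of which was -1.25 in the liver of mouse D. The mean was -0.26 in heart, -1.64 in liver, -1.68 in brain and -2.78 in muscle. Heart exceeded liver by 1.38 (SE 0.21, adjusted p = 5.88e-06) and muscle by 2.51 (SE 0.21), and liver and brain differed by 0.04 (SE 0.21). Muscle was the lowest tissue for Gsto2, as it was for Gstm6 and Gstm7.

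Of the UDP-glucuronosyltransferases, 13 of 14 were highest in liver, with the Ugt1a6a call lost under normexp background correction and with the WT arrays alone. All 7 Ugt2b genes, which conjugate steroids and drugs, were called highest there. Ugt2b36 levels were 6.26, 6.40 and 6.65 in the KI livers (mice A, B, C) and 6.44, 6.66 and 6.48 in the WT livers (mice D, E, F). The same probe was not well above background in any heart or muscle, and its only detected brain was that of mouse C. The livers were at least 3798-fold above the hearts (adjusted p = 7.53e-11) and at least 1993-fold above the muscles (adjusted p = 1.97e-10). For Ugt2b34 the bounds were 3582-fold over heart and 1880-fold over muscle, and for Ugt2b1, with a liver mean of 3.96, they were 659-fold and 346-fold. Differences that rest on such bounds have no order among themselves.

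Ugt1a6b, a phenol-conjugating enzyme of the Ugt1a locus, was detected on all 24 arrays and averaged 8.25 in liver, -0.32 in heart, -0.48 in brain and -0.83 in muscle, a 379-fold difference between liver and heart. Ugt1a transcripts share their 3′ exons, so a probe there cannot tell first exons apart, and the second Ugt1a6b probe was detected in all 6 livers but on no heart or muscle array. Ugt3a2, whose family uses sugar donors other than UDP-glucuronic acid, averaged 6.71 in liver and was at least 2330-fold lower in muscle. Ugt2a1, known from olfactory epithelium, was the only UDP-glucuronosyltransferase not called highest in liver, and its brain values are described below.

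Of the sulfotransferases, 14 were highest in liver, 2 in brain and 1 in heart. The Sult2a genes sulfate hydroxysteroids and bile acids. Sult2a1 averaged 7.26 in liver and was not well above background in any heart or muscle, at least 6492-fold below liver in heart (adjusted p = 5.25e-10) and at least 3407-fold in muscle (adjusted p = 1.44e-09). For Sult2a2 the bounds were 6885-fold and 3614-fold, and for Sult2a4 2519-fold and 1322-fold. The Sult2a sequences are near-identical in part, and values of neighbouring Sult2a probes are not independent. Sult2a8 differed from the rest of its family in being detected on all 24 arrays, at a mean of 5.76 in liver, 0.66 in muscle, -0.80 in heart and -0.93 in brain. Sult1a1, the phenol sulfotransferase, exceeded heart by 4.20 (SE 0.27) in liver and was lowest in brain. Sult3a1, which sulfates amines, averaged 3.94 in liver and was not well above background in any heart or muscle (at least 653-fold and 343-fold lower). Sult5a1 was detected everywhere, highest in liver at 1.45 and next in muscle at -1.45.

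Sult4a1 and Sult2b1 were the brain members. Sult4a1, a sulfotransferase of neurons, was 5.88, 6.15 and 5.59 in the KI brains (mice A, B, C) and 5.91, 5.95 and 5.99 in the WT brains (mice D, E, F). Its mean was -0.97 in liver, -3.58 in heart and -3.82 in muscle, so brain exceeded liver, the next tissue, by 6.88 (SE 0.25, adjusted p = 3.81e-15, 118-fold). A second Sult4a1 probe was detected on 6 brain arrays, 1 liver array and 1 muscle array. Sult2b1, which sulfates cholesterol and pregnenolone, was 0.53, 1.19 and 0.49 in the KI brains and 0.66, 0.95 and 0.92 in the WT brains. Its probe was detected in 5 livers, 1 heart and 2 muscles, with a mean of -4.54, -6.07 and -4.39, and brain exceeded muscle by 5.18 (SE 0.35, adjusted p = 7.20e-11). Unlike most members, neither was higher in the brain of mouse C than in the other brains.

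Sult6b1 was the remaining member led by heart, from a low level. Its hearts lay between -3.77 and -3.33 (mean -3.58), its probe was detected in 5 brains, 1 muscle and no liver, and heart exceeded brain by 1.81 (SE 0.43, adjusted p = 0.000871). This call was lost with normexp background correction and with the KI arrays alone.

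**Figure D2:**
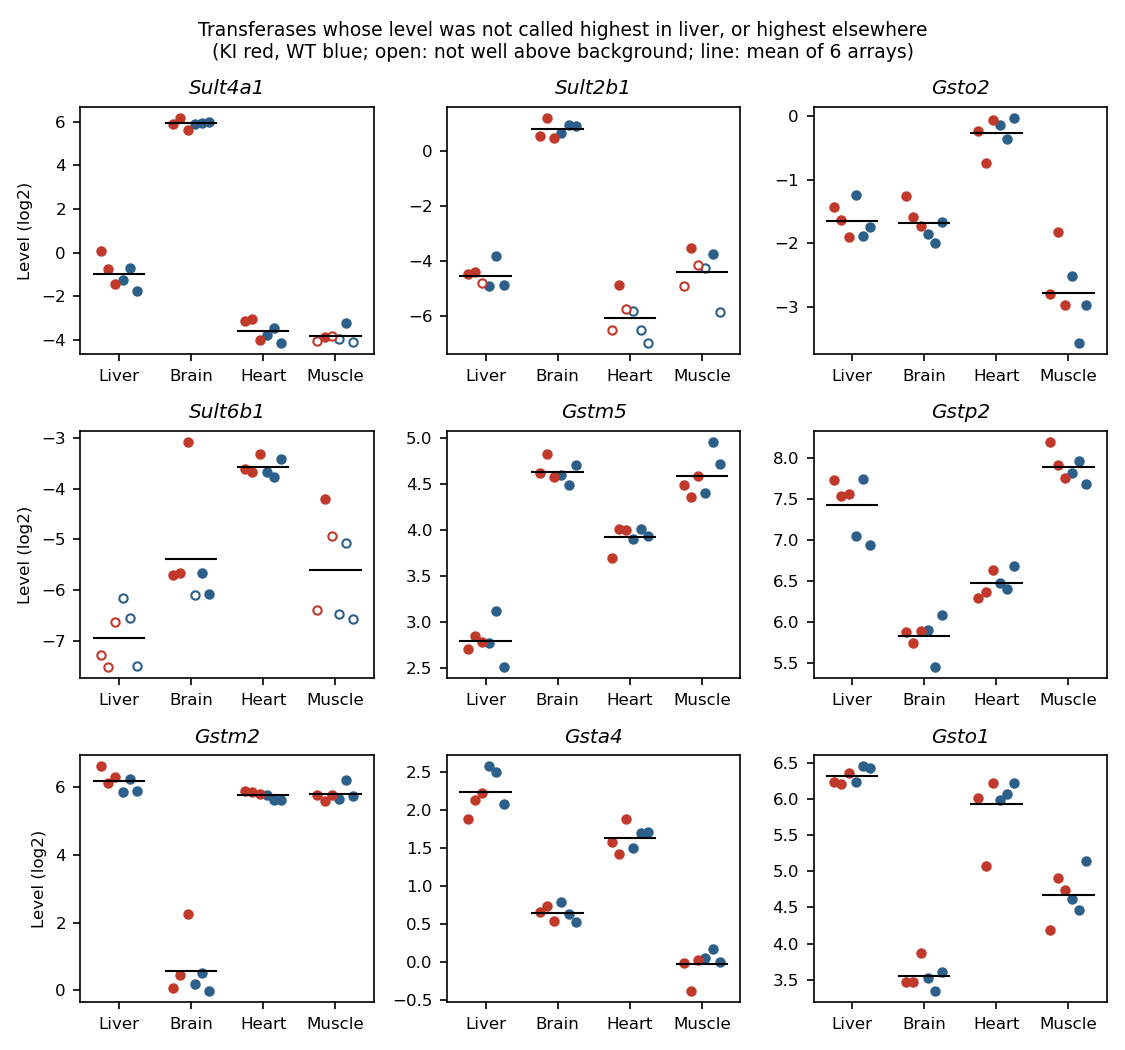
Levels (log2 against the array's own 75th percentile) of 9 transferases in the 4 tissues, 1 panel per gene, with a point per mouse, open where the probe was not well above background, and a line at the mean of 6 arrays. Sult4a1 and Sult2b1 were highest in brain, Gsto2 and Sult6b1 in heart, and Gstm5 was lowest in liver. Gstp2 was slightly higher in muscle than in liver with the probe shown, but not with its second probe.

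The arrays came on 3 slides, which split the tissues unevenly: all livers were on slide 1, all muscles on slide 3, brains on slides 1 and 2 and hearts on slides 2 and 3. Within slide 1, all 41 members highest in liver had measured levels over 1 above the 2 brains there, with no overlap. For the 18 of them detected on all 8 of these arrays the difference was 2.04 to 9.83, and for the others at least 1 array was not well above background. Within shared slides, the brain levels of Sult4a1 were 6.86 above liver and 9.26 above heart, and those of Sult2b1, detected in 5 of 6 livers and 1 of 4 hearts there, were 5.14 and 6.81 above. The heart levels of Gsto2 were 1.38 above brain and 2.73 above muscle, with no overlap. Those of Sult6b1 were 1.44 above brain on average, with overlap, as the brain of mouse C (-3.09) lay above every heart, and 2.24 above muscle, where 1 of 6 arrays was detected. Liver shared no slide with heart or muscle, so these pairs have no within-slide value. With slide as a term in the fit, 40 members were highest in liver, the member lost being Ugt1a6a.

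The genotype comparison asked whether KI and WT mice differed in these genes within each tissue, by limma on 3 against 3 arrays with adjustment over all genes tested. No member passed the adjusted threshold of 0.05 in any tissue, and neither did any other gene: 0% of 14092 liver genes, 16073 brain genes, 14931 heart genes and 13516 muscle genes. Of the members, 51 were tested on the liver arrays, 29 on brain, 25 on heart and 23 on muscle arrays, a gene being tested where its probe was detected on all 3 arrays of at least 1 genotype. At an unadjusted p under 0.05, the liver held 10 members (6 higher in KI, 4 lower), the muscle 1, and brain and heart 0 each. Over all genes the share was 11.7% for liver (7.48% higher, 4.25% lower), 0.79% for brain, 1.64% for heart and 0.851% for muscle. The liver count of 10 was 4 without WT mouse D, 6 without KI mouse B or without KI mouse C, and 14 without WT mouse F.

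In liver the KI and WT values did not overlap for 9 of the 51 members, 4 above (12.2% of all genes) and 5 below (7.5%), and their share was near the 19.7% of all genes without overlap. The median KI minus WT difference of the 51 members was -0.02, against 0.04 over all genes. The 20 glutathione transferases tested had a median of -0.04 and the 14 UDP-glucuronosyltransferases of -0.08, while the 17 sulfotransferases had a median of 0.36 with 12 of 17 above 0. All 6 members with an unadjusted p under 0.05 and a higher KI mean were sulfotransferases. Among them, Sult1e1 entered the test through the KI arrays alone, and the values of Sult2a1, Sult2a2 and Sult2a4 are not independent. The 6 therefore do not count as separate observations. A test of the sulfotransferases as a group was not made.

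Gsta2, an alpha class enzyme, was 3.87, 4.02 and 4.48 in the KI livers (mice A, B, C) and 4.73, 4.98 and 4.69 in the WT livers (mice D, E, F). Every KI liver lay below every WT liver, and the difference was -0.67 (SE 0.19, adjusted p = 0.382). Sult2a8 was 5.07, 5.63 and 5.51 in the KI livers and 5.96, 5.96 and 6.40 in the WT livers. These groups did not overlap either, with a difference of -0.71 (SE 0.20, adjusted p = 0.382). Sult1d1, which sulfates catecholamines, was 3.66, 3.91 and 3.67 in the KI livers and 4.42, 4.10 and 4.06 in the WT livers, a difference of -0.44 (SE 0.15, adjusted p = 0.402), again without overlap. The second Sult1d1 probe gave -0.25. These 3 were the members of smallest p in liver, and none passed the threshold.

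Of the other Sult2a genes, all but Sult2a7 had higher KI means. Sult2a2 was 7.52, 7.66 and 7.96 in the KI livers and 6.41, 7.22 and 7.27 in the WT livers, a difference of 0.75 (SE 0.26, adjusted p = 0.402) without overlap. Sult2a1 was 7.29, 7.86 and 7.91 in the KI livers and 6.23, 6.92 and 7.32 in the WT livers (difference 0.86, SE 0.31, adjusted p = 0.402), and its groups overlapped. Sult2a4 differed by 0.99 (SE 0.39), Sult2a3 by 0.98 (SE 0.47) and Sult2a6 by 0.73 (SE 0.31), all with overlap. The liver of WT mouse D was the lowest of the 6 for all 5 of these genes, and without it the Sult2a2 difference was 0.47. That liver also had the lowest summed hepatocyte marker level (11.80), followed by WT mouse F (12.05). The KI livers were at 12.32 to 12.54 and WT mouse E at 12.71. The part of this in the Sult2a values was not tested. Sult2a7 differed by -0.03 (SE 0.70), with the lowest value, 2.96, in KI mouse A and the highest, 5.20, in KI mouse C. Sult2a3, Sult2a6, Sult2a7 and Sult3a2 are named because of their values.

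Sult3a2 was -1.56, -1.48 and -0.85 in the KI livers and -3.97, -2.97 and -1.63 in the WT livers. The groups did not overlap and differed by 1.56 (SE 0.57, adjusted p = 0.402), while Sult3a1 differed by 0.27 (SE 0.29). Sult1e1, the estrogen sulfotransferase, was -3.40, -2.63 and 0.48 in the KI livers and -4.45, -4.58 and -4.00 in the WT livers, the probe in mouse E being not well above background. Sult1e1 thus entered the liver test through the KI arrays alone, so its unadjusted p and lack of overlap are not independent of that filter. Every KI liver was higher, by 2.49 on average (SE 0.94, adjusted p = 0.405), and without mouse C the difference was 1.33. The liver of mouse C is the library with the skeletal muscle markers given above, whose part in the Sult1e1 value was not tested. The other members with an unadjusted p under 0.05 were Sult1c2 (difference 0.36, SE 0.14) and Gstm7 (difference -0.52, SE 0.21).

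**Figure D3:**
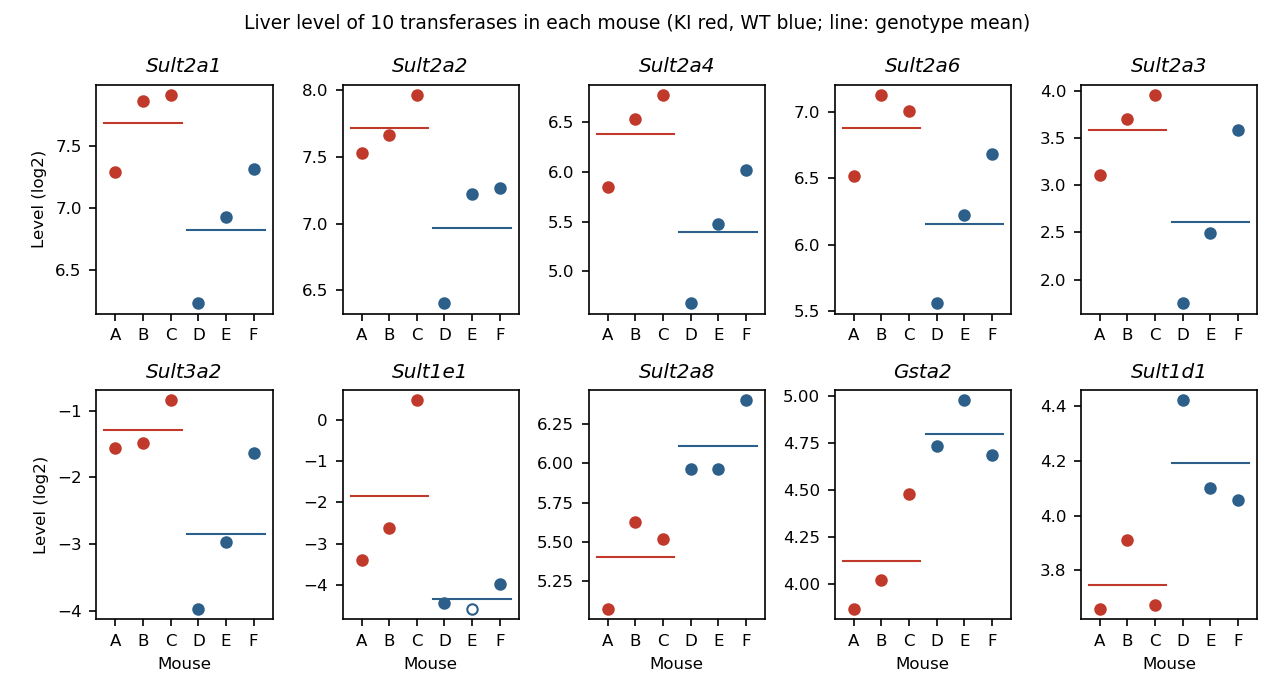
Liver level (log2 against the array's own 75th percentile) of 10 transferases in KI mice A, B and C (red) and WT mice D, E and F (blue), with lines at the genotype means and an open point where the probe was not well above background. Mouse D was lowest for Sult2a1, Sult2a2, Sult2a3, Sult2a4 and Sult2a6, mouse C was highest for Sult1e1, and Sult2a8, Gsta2 and Sult1d1 were lower in every KI liver.

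Several members called highest in liver had small genotype differences. Gsta3 differed by 0.42 (SE 0.28), Gstm1 by 0.28 (SE 0.25), Gstt1 by 0.18 (SE 0.16), Ugt1a6b by 0.08 (SE 0.16), Ugt2b36 by -0.09 (SE 0.15) and Ugt2b34 by 0.05 (SE 0.13), none past the threshold. Probes of 1 gene did not always point the same way: Gstm1 gave 0.28 with the probe used and -0.19 with its other probe. Gstp2 gave 0.37 and -0.14, and Gstm3 gave -0.22 and 0.51. Sult5a1 had the lowest difference of the tested members, -0.85 (SE 0.36), with overlapping groups.

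**Figure D4:**
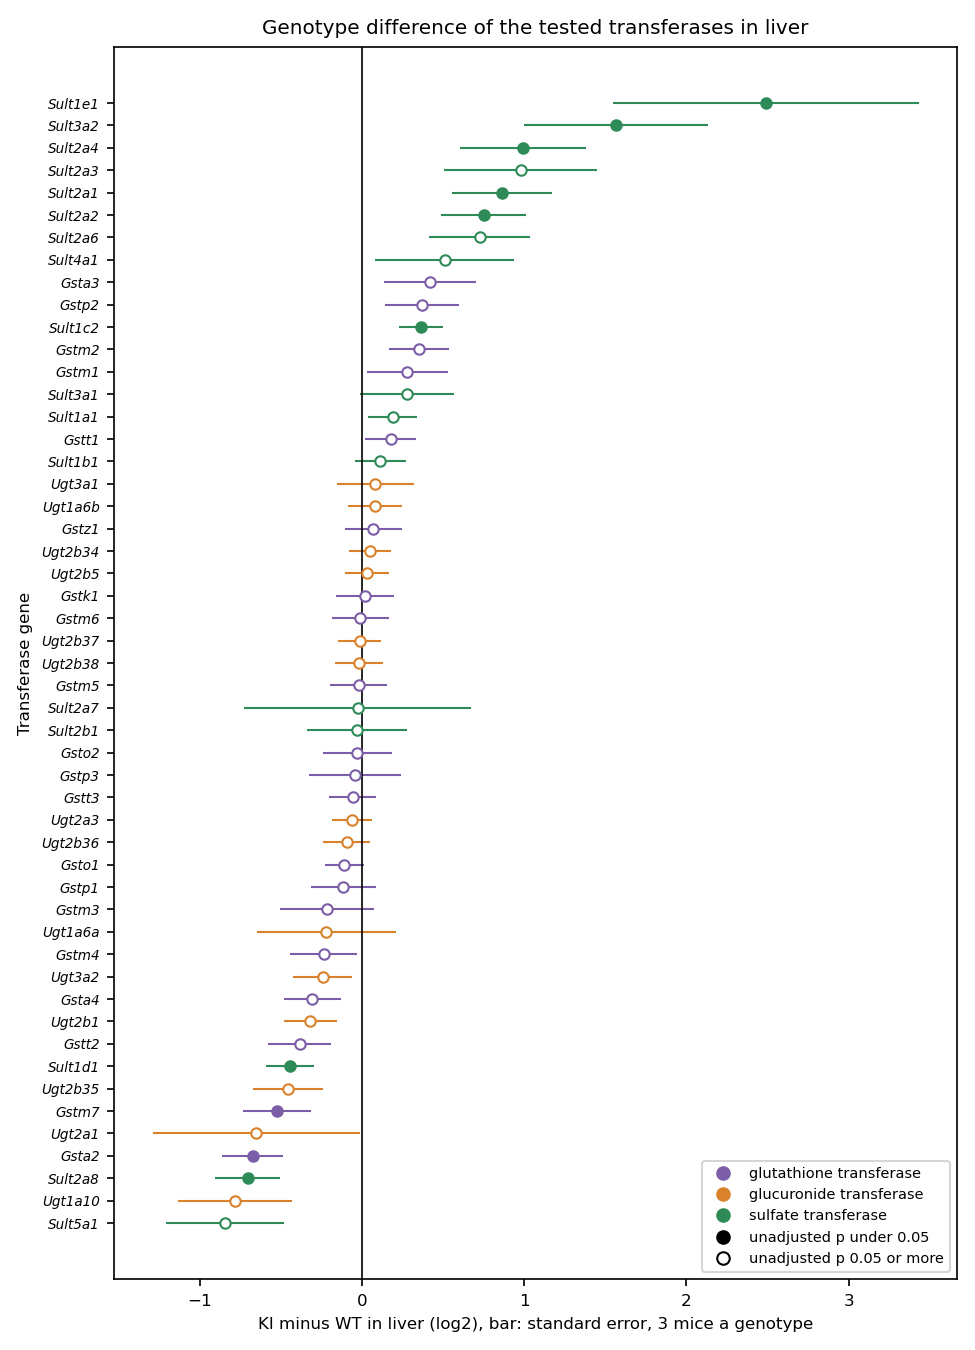
KI minus WT difference in liver (log2) of the 51 tested transferases, with the standard error as a bar, colored by enzyme class and filled where the unadjusted p was under 0.05. The 6 filled points above 0 are all sulfotransferases. Among them are Sult1e1, tested through the KI arrays alone, and Sult2a1, Sult2a2 and Sult2a4, whose values are not independent. The 4 below 0 are Sult1d1, Sult2a8, Gsta2 and Gstm7, and no point passed the adjusted threshold.

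In brain the median difference of the 29 tested members was 0.24, against -0.03 over all genes, and 25 of 29 were above 0. Without mouse C the median was 0.03, and no member differed by more than 1, whereas 5 did with that mouse. With no filter on dim probes the median was 0.96. The members of smallest p were Gstk1, Gsto2 and Sult6b1. Gstk1 was 2.15, 1.99 and 2.33 in the KI brains and 1.76, 1.93 and 1.93 in the WT brains, the only member without overlap (2.86% of all genes), with a difference of 0.28 (SE 0.14, adjusted p = 1.00) over both slides, 0.39 within slide 1 and 0.23 within slide 2. Gsto2 differed by 0.32 (SE 0.17) with overlap. Sult6b1 differed by 1.13 (SE 0.68) and rested on mouse C, at -3.09, against at most -5.66 in the other brains.

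The brain of KI mouse C held higher levels than all 5 other brains for 41 of the 52 fitted members, and by more than 1 for 32 of them. Over all genes these shares were 18.8% and 4.51%. For the 12 members called highest in liver and detected in this brain but in none of the other brains, its signal was 1.47% of the liver mean in the median (quartiles 1.21 and 2.37%), and over the 145 genes of any kind that met the same conditions the median was 1.36%. Gsta3, for example, was 3.75 in the brain of mouse C, against -1.36 at most in the other brains and 8.45 on average in liver, and Ugt1a6b was 2.82, against at most -0.97. The genotype values in brain without this mouse are those given above.

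A few members stood far above that share. Ugt2a1 was 3.44 in the brain of mouse C, while the other brains were at -3.35, -4.96, -4.29, -2.79 and -5.40 in mice A, B, D, E and F and the 6 livers lay between -3.92 and -1.36. No liver reached the level of that brain, whose signal was 7234% of the liver mean. Without this array, Ugt2a1 was called highest in liver. Sult1e1 was -0.26 there, against at most -6.24 in the other brains, none of them detected, and a liver mean of -3.10. The liver of the same mouse was at 0.48, so the signal of this brain was 59.8% of that liver. Sult1c1 was detected on 1 of the 24 arrays, again the brain of mouse C, at -4.92. In the same brain the olfactory mucosa markers Bpifb3, Bpifb4, Omp and Stoml3 were at 6.31, 6.07, 5.64 and 1.26, against at most -1.50, -2.82, 2.25 and -3.25 in the other brains, and Gng13 was at 5.08, below the other 5. The summed level of the 11 measured olfactory markers was 8.02 in mouse C and 5.16 to 5.62 in the others. The part of liver or olfactory RNA in these values was not tested. Sult1c1 and these markers were named after their values were seen.

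**Figure D5:**
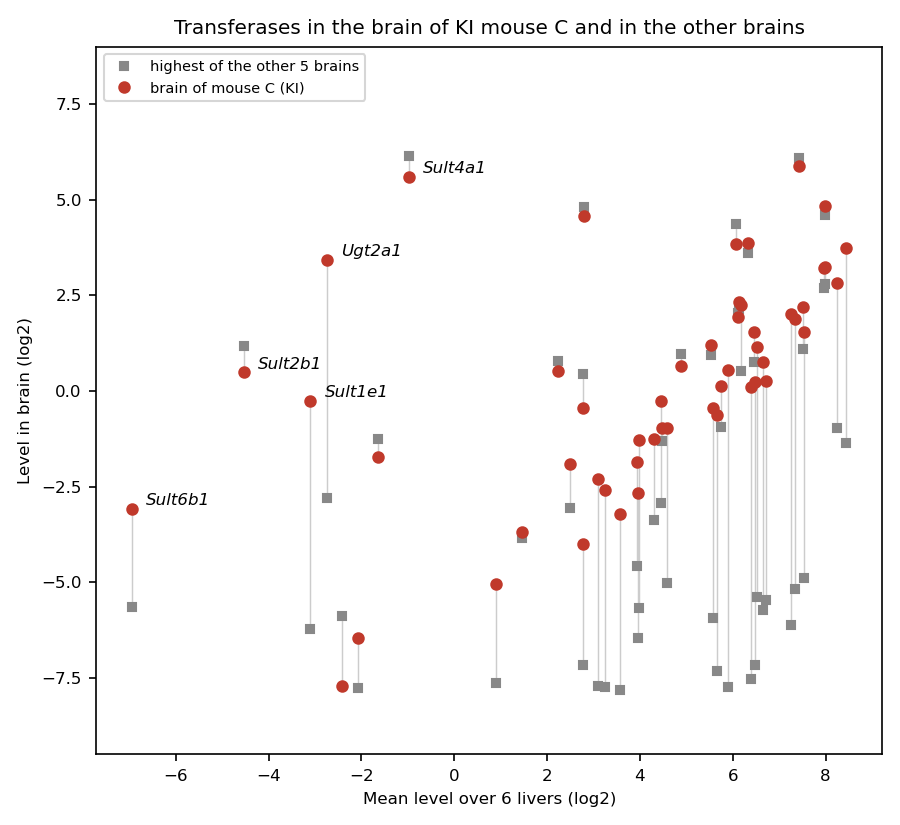
Level in brain (log2 against the array's own 75th percentile) of the 52 fitted transferases against their mean level over 6 livers, for the brain of KI mouse C (red) and the highest of the other 5 brains (grey squares), joined for each gene. For 41 of 52 genes the red point lies above the grey square. The named Ugt2a1, Sult1e1 and Sult6b1 do so at a low liver level, and for Sult4a1 and Sult2b1 the red point lies below the square.

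In heart the median member difference was -0.01, against -0.05 over all genes. Sult5a1, Gstm2 and Sult4a1 had the smallest p. Gstm2 was 5.88, 5.85 and 5.81 in the KI hearts and 5.77, 5.64 and 5.63 in the WT hearts, the only member without overlap (5.02% of all genes), with a difference of 0.16 (SE 0.12, adjusted p = 0.971). Sult5a1 differed by 0.40 (SE 0.25), 0.51 within slide 2 and 0.17 within slide 3. It rested on the heart of KI mouse B, at -1.56 against at most -2.39 in the other hearts, and was 0.10 without it. In that heart 6 of 8 adipocyte markers (mean level 0.96, against at most -0.34) and 6 of 10 skeletal muscle markers (-2.26, against at most -2.59) were above the other 5 hearts. So were 5 of 6 astrocyte, 5 of 8 neuron and 3 of 8 cardiomyocyte markers. The cardiomyocyte markers had their highest mean level (7.91, against 5.44 to 7.35) and highest summed level (11.24, against at most 10.89) in that heart. By summed level its skeletal muscle markers were the lowest of the 6 hearts (4.90, against 5.59 to 5.86). Its summed adipocyte level (7.20) lay within the range of the others (7.18 to 7.63). The part of these markers in the Sult5a1 value was not tested. Sult4a1 differed by 0.40 (SE 0.31), 0.53 and 0.12 within the same slides, and by 0.22 without KI mouse B or without WT mouse F. In muscle the median was 0.06, against 0.02 over all genes, and 2 members did not overlap (3.54% of all genes). Ugt1a6a was -3.06, -3.98 and -4.11 in the muscles of WT mice D, E and F, while its probe was not well above background in any KI muscle. Ugt1a6a entered the muscle test through the WT arrays alone, so its unadjusted p and lack of overlap are not independent of that filter. The WT muscles were at least 1.5-fold higher (adjusted p = 1.00), near the limit of detection. Gstm1 was lower in every KI muscle than in every WT muscle, by 0.11 on average (-0.11, SE 0.14). Gstm4 differed by -0.36 (SE 0.22) and Gsto2 by 0.48 (SE 0.39), both with overlap. The Gsto2 difference was 0.13 without KI mouse B, whose muscle was at -1.83 against at most -2.51 in the others, and 0.21 without WT mouse E. The muscle of mouse B also had 9 of 12 mammary epithelium markers (mean level -1.11, against at most -4.19), 6 of 9 keratinocyte markers (-1.35, against at most -3.31) and 5 of 5 erythroid markers (3.88, against at most 2.47) above the other 5 muscles, and their part in the member values was not tested.

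With each mouse averaged over its 4 tissues, 0 of 52 members passed the adjusted threshold and 0 had an unadjusted p under 0.05, against 3.47% of all genes. Ugt2b38 was the only member whose mouse means did not overlap between genotypes (8.98% of all genes), and it is named for that. The test of whether the genotype effect varied with tissue also passed for 0 of 52 members, with an unadjusted p under 0.05 for Sult2a8 and Sult1d1 (1.86% of all genes). This count of 2 was 5 without KI mouse C and 1 without KI mouse B or without any 1 of the WT mice. Outside liver, Sult1d1 was well above background only in the brain of mouse C (-1.28), the library with the hepatocyte markers given above, so its other tissue values carry no order.

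Genes that supply, complement or control these enzymes were followed as 6 lists, and no gene of any list passed the adjusted threshold in any tissue. In liver, where 11.7% of all genes had an unadjusted p under 0.05 (7.48% higher in KI, 4.25% lower), 1 of 13 tested genes of glutathione supply had an unadjusted p under 0.05, Ggct (difference 0.46, SE 0.14), a cyclotransferase of glutathione breakdown. Among 14 other glutathione transferases and peroxidases there were 3, all higher in KI: the microsomal transferase Mgst2 (0.82, SE 0.29) and the peroxidases Gpx7 (0.45, SE 0.14) and Gpx3 (0.44, SE 0.18). Of 8 genes that make or carry UDP-glucuronic acid and the sulfate donor PAPS there were 0, and of 10 genes that remove conjugates 1, the sulfatase Arsb (-0.58, SE 0.22). Of 16 transcription factors there were 2, Nr1i2, the pregnane X receptor, and Cebpa, with lower KI means (-0.47, SE 0.16, and -0.38, SE 0.15). None of 17 tested Nrf2 targets reached an unadjusted p under 0.05 in liver, and their median difference was 0.20. In brain no gene of the 6 lists did, in heart Chac1 and Cebpb did (-0.52, SE 0.21, and -0.49, SE 0.20), and in muscle Arsa (0.59, SE 0.18).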

How the data were processed

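Total RNA of 24 samples was hybridised to single-color Agilent arrays and read with Agilent Feature Extraction. The deposited scanner files hold a background-corrected processed intensity for each spot, made by the authors' scanner software. The deposited value table of 33912 features holds a score per array, which matched the z-score of the log2 values within an array (largest difference 0.005), and was used only as an alternative. From the intensity, log2 was taken and the 75th percentile of each array's non-control spots was subtracted. Control spots and outlier flags were left out, spots of a probe were averaged, and genes were named through RefSeq accessions: 50.9% of probes received a symbol, and 99.0% of the 26732 probes with an mRNA accession matched. No column lacked a sample (0). The number of arrays limits the precision.

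Groups came from the labels, and mice are the replicates, so p-values measure the spread between these mice. Tests used limma 3.58.1 in R 4.3.3 with Benjamini-Hochberg adjustment over all genes tested: tissues over all 24 arrays with 8 groups, and genotype within each tissue. The steps were run on simulated data. The planted genotype differences exceeded most of those seen here and the spread was smaller, so that run does not measure power for these data. Members named in the text were the 3 of smallest p per tissue in the genotype comparison, up to 5 per tissue in the tissue comparison, and a fixed list of representatives of each subfamily. Other genes named, such as Gstm5, Gstp2, Gstm7, Sult1c2 and Sult3a2, were chosen after their values were seen. The members and lists were chosen with earlier results of these data known, and 1 gene of the lists is not reported here. The same mouse gave all 4 tissues, which pairs the arrays. Deviations from group means had a mean correlation of 0.02 for tissues of the same mouse, and of -0.01 for tissues of different mice of that genotype, over 12286 genes. As deviations within a group cancel out, the second value is tied to the first and is no separate comparison. Alternatives were quantile normalization, normexp correction, z-scores, the deposited scores, the mean of all probes, other detection filters, array weights, slide or mouse as a block, all arrays in 1 fit, arrays of 1 genotype, and leaving out each mouse, or in the tissue comparison each array.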

Additional observations from a re-analysis of the deposited data

Results flagged for a closer look

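In 95 sets of 6 arrays of a named member in a tissue, the gap of the highest or lowest array to its neighbour was compared with the whole range. In 17 of them the ratio was above the critical value for 6 samples. Chance flags about 1 in 20 sets where each holds independent values of 1 group. These sets hold both genotypes, share arrays and were partly named by their values, so that rate is no baseline here. Of the 17, 9 were the brain of KI mouse C, each time the highest: Ugt1a6b (gap 0.884 of the range), Gsta3 (0.865), Sult6b1 (0.855), Sult2a8 (0.786), Gstm2 (0.759), Gstz1 (0.721), Ugt2a1 (0.705), Gsta2 (0.689) and Gstt1 (0.632).

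The heart of KI mouse B stood apart for 4 members. It was highest for Ugt1a6b (0.835), Sult5a1 (0.789) and Gstt1 (0.701), and lowest for Gsto1 (0.795). The remaining sets were Gsta3 in the heart of KI mouse A, the lowest there (0.693), Gstm2 in the muscle of WT mouse E, the highest (0.684), Gsta4 in the muscle of KI mouse B, the lowest (0.663), and Ugt2b34 in the liver of KI mouse C, the highest (0.662). The causes of these values were not tested.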

How the results depend on the processing

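Of 220 counts of members called highest in a tissue or past the adjusted genotype threshold, the latter 0 throughout, 217 stayed within 1.5 times the value reported. The members highest in heart fell from 2 to 1 with normexp correction and to 1 with KI arrays only, each time losing Sult6b1 (0.01 over the next tissue, adjusted p = 0.966, and 1.28, adjusted p = 0.147). With no minimum difference 1 member, Gstp2, was highest in muscle instead of 0. That call rests on the probe used, as the second Gstp2 probe was higher in liver. Leaving out each array in turn gave 41 to 42 members called highest for liver, 2 to 2 for brain, 2 to 2 for heart and 0 to 0 for muscle. Leaving out each mouse gave 0 to 0 members past the genotype threshold in each tissue, in the mean of the tissues and in the difference between tissues. Gstm4 in muscle turned from -0.36 to 0.014 with array weights, and the cause was not tested.

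With the mouse as a replicate block over all 24 arrays, 0 members passed the genotype threshold in each tissue, 41 were called highest for liver, 2 for brain, 2 for heart and 0 for muscle, so the pairing changed no call among the members. Over all genes, the count past the genotype threshold was 0 in each tissue as reported, but 3 in liver with all 24 arrays in 1 fit, with or without the block, 1 in heart without KI mouse C, and in muscle 1 with array weights and 4 without KI mouse A. The 10 members with an unadjusted p under 0.05 in liver became 2 with all 24 arrays in 1 fit, 6 with no filter on dim probes and 4 to 14 without 1 mouse. Such counts moved elsewhere too: from 1 to 6 in muscle and from 0 to 2 in brain with array weights, from 0 to 2 in brain without KI mouse A, and in the mean of the tissues from 0 to 7 without KI mouse A and to 2 with normexp correction or without KI mouse B. The 1 in muscle became 0 with normexp correction, with detection required on all 6 arrays, and with all 24 arrays in 1 fit. It became 2 with no filter on dim probes or without KI mouse C. For the difference between tissues the 2 became 1 to 5 without 1 mouse and 1 with normexp correction. Probes near background limit the differences against heart and muscle to bounds.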
